A study of Capsella rubella with 6 samples.

Results

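Partly paternal genes are described here in the endosperm of *Capsella rubella*, a selfing relative of Arabidopsis, after 2 accessions had been crossed in both directions. The members were chosen by their measured maternal share. A gene entered the set when it had 20 or more allelic reads and a maternal share of at most 55% in each of the 4 endosperm libraries, and a share above 33% in at least 1 of them. The maternal share is the maternal reads divided by the maternal and paternal reads, summed over the gene's single-nucleotide polymorphisms (SNPs). The rule chose 43 genes out of 12641 genes with a listed SNP, of which 6990 had 20 reads or more in each library. Since the members were selected on these shares, the shares are given below as a description and carry no test.

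The endosperm RNA came from Cr A x Cr B (2 libraries) and from Cr B x Cr A (2 libraries), where Cr A is the accession Cr48.21 and Cr B is Cr75.2. Seeds were taken 6 days after pollination from flowers emasculated 2 days before pollination, and each library pooled dissected endosperm of 300 to 500 seeds. No treatment or mutation separated the groups, and no label ties the libraries to separate plants, so a p-value here reflects the spread of these pools, which may be technical. Which partner was the mother is not labelled, and the first name was taken as the mother; on the opposite reading Cr A and Cr B change places in every result on the accession of an allele.

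Endosperm is the nourishing tissue of the seed, formed when the central cell, which brings a pair of maternal genomes, is fertilised by a single sperm. A gene read equally from every genome copy therefore gives 2 maternal reads for each paternal read, a maternal share of 66.7%. Imprinted genes depart from that dosage according to the parent that passed on the allele. In Arabidopsis, paternally expressed genes are known for repression of the maternal allele by the Polycomb complex PRC2 of the endosperm, and several are known to act in seed size and in barriers between species or ploidies. That repression can be incomplete, so that a paternally biased gene still gives maternal transcripts.

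The files give genes as intervals without names. A gene is identified below by scaffold, start and end as the authors' tables list them when it is first described, and by scaffold and start afterwards, so that 2:3019241 starts at base 3019241 of scaffold 2; the genome build is not given in the sources used here. Neither a gene function nor a cell type marker could be matched to an interval, so the labelled tissue was not checked against marker genes. The median share of covered genes stood near the 2 to 1 dosage, at 69.3% and 67.8% in Cr A x Cr B and at 69.6% and 72.2% in Cr B x Cr A (replicates 1 and 2). Genes held 7549075 and 10913804 allelic reads in Cr A x Cr B, against 8828316 and 10864896 in Cr B x Cr A. Of these reads, 26553 and 53398 fell in members in Cr A x Cr B, against 27450 and 56539 in Cr B x Cr A. That is 0.352% and 0.489% of the allelic reads in genes for Cr A x Cr B, and 0.311% and 0.520% for Cr B x Cr A, with the larger share in replicate 2 of both crosses. Calls of a base that belongs to neither parent made up 0.047% to 0.104% of the calls in members.

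By the rule, the members gave more paternal reads than the dosage in every library and kept a maternal share above 33% in at least 1. Whether reads from seed coat or embryo have a part in either was not tested, since no marker could be matched. The median maternal share of the members was 38.4% and 26.8% in Cr A x Cr B, and 41.5% and 37.2% in Cr B x Cr A. For 25 strongly paternal genes, whose share was at most 33% in every library, the medians were 15.1% and 9.75% in Cr A x Cr B, and 12.8% and 19.9% in Cr B x Cr A. Of the 4 libraries, replicate 2 of Cr A x Cr B had the lowest median for the members and for the strongly paternal genes. The 43 members and the 25 strongly paternal genes together are the 68 genes, 0.973% of the 6990, with a share of at most 55% in each library.

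**Figure D1:**
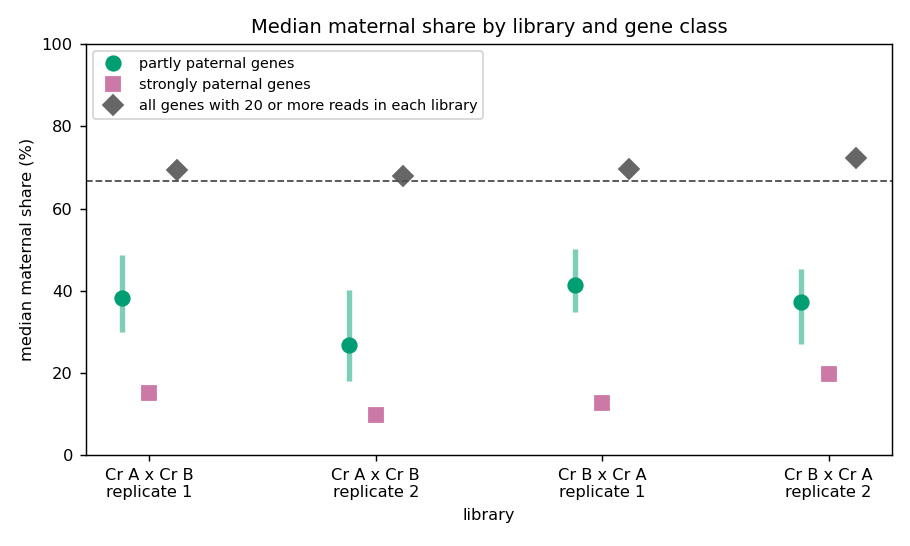
Median maternal share (vertical axis, %) of the partly paternal genes, the strongly paternal genes and all genes with 20 reads or more in each library, for the 4 libraries on the horizontal axis. Thick lines join the lower and upper quartiles of the partly paternal genes and the dashed line marks 2 maternal to 1 paternal; the partly paternal medians lie between 26.8% and 41.5%, under the medians of all covered genes in every library.

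Averaged over the 4 libraries, the share of a member had a median of 34.4% and a range of 19.2% to 53.1%. Of the 43 members, 17 averaged at most 33%, 18 lay between 33% and 45%, and 8 lay above 45%. Members above 33% in 1, 2, 3 and 4 libraries numbered 14, 7, 10 and 12. A share of at most 33%, as in the strongly paternal genes, was seen in 14 and 28 members in Cr A x Cr B, against 8 and 16 in Cr B x Cr A. A share above 50%, with more maternal than paternal reads, was seen in 8 and 2 members in Cr A x Cr B, against 11 and 4 in Cr B x Cr A.

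**Figure D2:**
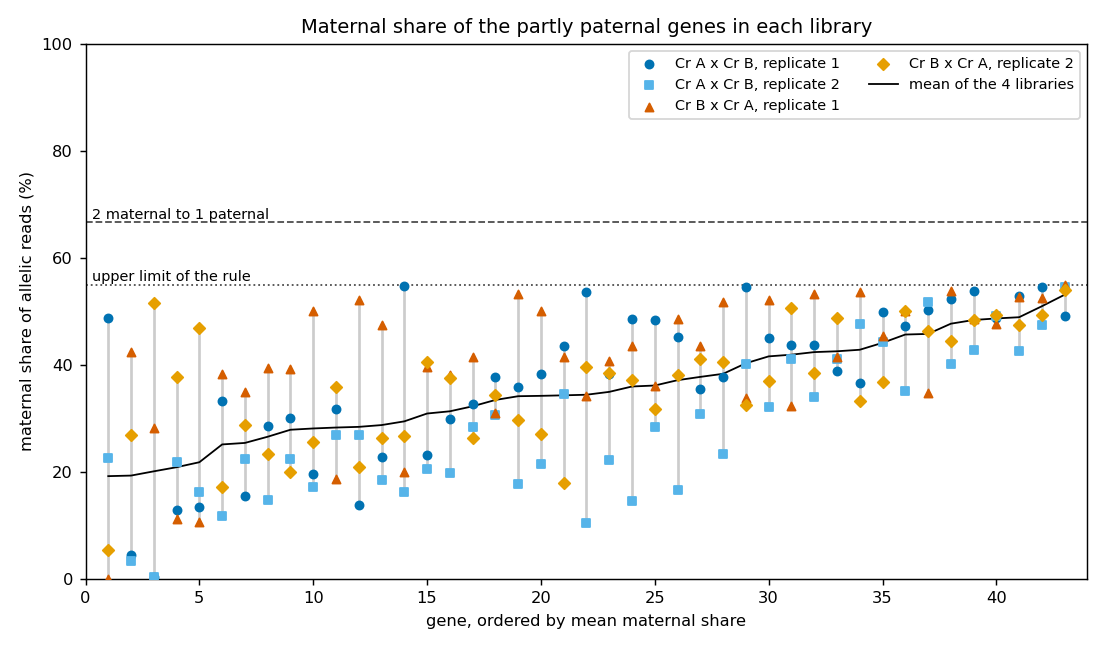
Maternal share (vertical axis, %) of each of the 43 members, ordered along the horizontal axis by their mean. Points are the 4 libraries, grey lines join the lowest and highest library, and the black line is the mean, which runs from 19.2% to 53.1%; the spread over libraries is wide for most genes with a low mean.

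Libraries differed widely for most members. The gap between a member's highest and lowest library had a median of 20.0 percentage points and ran from 1.66 to 51.3 points. It was under 10 points in 5 members and 30 points or more in 11. In 8 members the exact (Clopper-Pearson) 95% binomial intervals of the 4 libraries shared a common value, and in the other 35 they did not. In 40 members the upper bound lay under 66.7% in all 4 libraries, and in 12 it lay under 50% in all 4. A read over several SNPs is counted at each, so these intervals cover counting error only and are too narrow where reads were shared. Neither the gaps nor the shared intervals were computed for covered genes or for the strongly paternal genes. Whether members spread more over the libraries than other genes was therefore not tested, and nothing is read from these counts.

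The members with the deepest coverage show how different these patterns were. Gene 4:2545639-2548130 was the steadiest of the 8 members with the highest minimum of reads over the libraries, at 37.8% and 30.7% in Cr A x Cr B and 31.0% and 34.3% in Cr B x Cr A, from 2762 to 4789 reads a library. Gene 5:830598-831303 had 35.5% and 30.9% in Cr A x Cr B, and 43.6% and 41.1% in Cr B x Cr A. Its 2 libraries of Cr A x Cr B both lay under those of Cr B x Cr A. Its well-covered SNPs did not all share this order. Those at bases 830944 and 830977 had it, the crosses overlapped at 830737, and 831094 had the reverse order.

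Gene 2:5014697-5019747 had 32.7% and 28.4% in Cr A x Cr B, and 41.5% and 26.4% in Cr B x Cr A. Gene 1:15891715-15894941 had 43.4% and 34.5% in Cr A x Cr B, and 41.4% and 17.9% in Cr B x Cr A. In both genes the 2 replicates of Cr B x Cr A differed more than the means of the crosses did. Gene 4:8526546-8532043 stood at 13.5% and 16.2% in Cr A x Cr B, and at 10.5% and 46.9% in Cr B x Cr A. It met the 33% limit through replicate 2 of Cr B x Cr A alone, which held 5371 reads.

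Gene 4:3132326-3137050 lay near equal reads of both parents, at 53.8% and 42.7% in Cr A x Cr B and 48.6% and 48.5% in Cr B x Cr A. Its well-covered SNPs did not all share this level. That at base 3133352 had 46.8% and 22.8% in Cr A x Cr B, and 69.5% and 71.6% in Cr B x Cr A. That at base 3136326 had 98.7% in replicate 1 of Cr B x Cr A and 48.6% in replicate 2. Gene 3:5268017-5271469 had 54.6% and 40.2% in Cr A x Cr B, and 33.8% and 32.6% in Cr B x Cr A, so the libraries of Cr A x Cr B were both the higher ones. Gene 6:8372461-8377442 had 22.7% and 18.6% in Cr A x Cr B, and 47.4% and 26.3% in Cr B x Cr A, with both libraries of Cr A x Cr B the lower ones.

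At the maternal end, the 4 members with the highest means lay near equal reads of both parents. Gene 3:4238659-4245960 had the highest mean, 53.1% ± 2.63 (SD, n = 4 libraries). Gene 6:7473963-7480095 averaged 51.0% ± 3.20 and gene 4:13855759-13858066 averaged 48.9% ± 4.88. Gene 6:6574262-6579496 averaged 48.7% ± 0.75 and had the smallest gap between libraries, with 48.8% and 49.1% in Cr A x Cr B and 47.6% and 49.2% in Cr B x Cr A. If all reads came from endosperm, with 2 maternal genomes to 1 paternal, equal reads mean more transcript per paternal copy than per maternal copy. Whether other seed tissue gave part of these reads was not tested.

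At the paternal end, the 4 members with the lowest means were uneven between libraries. The rule fixes part of this, since a member needs at least 1 library above 33%, and each of these 4 had only 1. Gene 4:1907519-1908913 averaged 19.2% ± 22.0, gene 6:14286090-14287603 averaged 19.3% ± 18.9 and gene 2:3019241-3022175 averaged 20.1% ± 24.8 (SD, n = 4 libraries). Each of these 3 genes had a share under 10% in at least 1 library, and no other member did. Gene 7:10736069-10737379 had 12.8% and 21.9% in Cr A x Cr B, and 11.1% and 37.7% in Cr B x Cr A, and had as few as 36 reads in a library. The 19 members not named by any criterion averaged 26.6% to 45.7%.

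Some members lay close to the limits of the rule. Just inside the upper limit stood 3:4238659, whose highest library was 54.8%, and 6:5845316-5848038, which reached 54.7% in replicate 1 of Cr A x Cr B but 16.3%, 20.0% and 26.8% in the other 3. Just outside it stood 5:9098250-9104510, with a highest library of 55.4%, and 1:11661739-11666375, with 55.5%. Just inside the lower limit stood 5:282939-285639, with a highest library of 34.9%, and 3:4838326-4842963, with 35.9%. Just outside stood 8:8243665-8245209, with a highest library of 32.8%, and 7:16892846-16893373, with 32.5%; both were strongly paternal genes.

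The libraries of a cross did not rank the members evenly. Replicate 2 of Cr A x Cr B was the lowest of the 4 libraries in 25 of the 43 members, against 34.7% of covered genes. Replicate 1 of Cr B x Cr A was the highest in 21 of the 43 members, against 20.1% of covered genes. Replicate 1 lay above replicate 2 in 33 of 43 members in Cr A x Cr B, with a median difference of 7.67 points, and in 29 of 43 in Cr B x Cr A, with a median difference of 4.24 points. Among covered genes, replicate 1 lay above replicate 2 in 60.4% for Cr A x Cr B and in 33.5% for Cr B x Cr A. The strongly paternal genes had replicate 1 above in 14 of 25 for Cr A x Cr B and in 5 of 25 for Cr B x Cr A. These counts have no test, and whether the larger share of reads in members in replicate 2 has a part in them was not tested.

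A fit of all 8597 genes with 20 or more reads in each cross sets the members among other genes, with edgeR's quasi-likelihood test on the reads of each parental allele and 2 maternal to 1 paternal as the null. The median parental term (log2 of maternal over paternal, relative to 2 to 1) was -1.97 over the members, -3.68 over the strongly paternal genes and 0.19 over all genes tested. Over the members it ran from -5.37 to -0.81. Per genome copy, at 2 maternal copies to 1 paternal, the paternal copy gave a median of 3.92 times the reads of a maternal copy. The range was 1.76 to 41.4 times, and it holds only if all reads came from endosperm. Both 41.4 and the term of -5.37 belong to gene 2:3019241. Its maternal share was 0.28% and 0.31% in Cr A x Cr B, but 28.2% and 51.6% in Cr B x Cr A. Its 41.4 therefore describes neither direction of the cross. Past a Benjamini-Hochberg adjusted p of 0.05, 42 of the 43 members were less maternal than 2 to 1, against 1.71% of all genes tested, and 0 were more maternal, against 5.73% of all genes tested; the rule used these shares, so nothing is read from these counts. The member not called was 1:9558898-9562666, whose term was -1.97 with an adjusted p of 0.0735.

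The authors' deposited tables also give a maternal ratio and a p-value for each gene, where the ratio divides maternal reads by 2 first, so that 0.5 is the dosage. In the authors' deposited table for each replicate, all 43 members had a ratio under 0.5 in both crosses, which the 55% limit of the rule fixes. The p-value in the authors' deposited tables, which tests the same reads that chose the members, was under 0.05 in all 4 libraries for 40 of the 43. Over covered genes the authors' deposited tables have both such a p-value and such a ratio in all 4 libraries for 1.36%, and nothing is read from the members' count. The 3 members without such a p-value in every library were 1:6157623-6159974, 3:4253514-4255393 and 6:5845316, each missing it in 1 library. These 3 are also the members whose exact interval reached 66.7% in a library.

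The 43 members lie on scaffolds 1 to 8, with 6, 5, 7, 9, 2, 8, 4 and 2 members on them in that order. Those are 0.273% to 1.13% of the covered genes of each of these scaffolds, lowest of them on scaffold 5 and highest on scaffold 4; the few covered genes on other scaffolds held no member. Of the intervals, 20 are on the plus strand and 23 on the minus strand. The median interval length was 3260 bases (range 706 to 7843), against 2222 bases for the strongly paternal genes and 2710.5 bases for covered genes. Members held a median of 4 SNPs (range 1 to 26), against 4 in the strongly paternal genes and 3 in covered genes. Levels are given in RPM, reads per 1000000 allelic reads in genes. The median level of the members, divided by the number of SNPs, was 11.5 RPM per site, against 12.6 for the strongly paternal genes and 12.4 for covered genes.

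Coverage was thin for a few members. The fewest reads of a member in a library was 23, 7 members had fewer than 50 reads in some library, and 32 had 100 or more in each. A single SNP stood for the whole gene in 8 members, and 2 members, 6:5845316 and 7:619655-622257, had no SNP in a listed exon. Reads at exon SNPs made up 98.2% to 98.9% of the members' reads. Only 2 members had exon SNPs and other SNPs both covered. The mean shares were 34.4% in exons and 36.9% elsewhere for 1:15891715, and 27.9% and 34.5% for 3:4838326. These means hide differences by library. Exons of 3:4838326 had 32.2% and 27.2% in Cr A x Cr B, and 16.7% and 35.7% in Cr B x Cr A. Its 1 SNP elsewhere had 18.9% and 11.3%, and 51.3% and 56.5%, from 23 to 53 reads a library. Exons of 1:15891715 had 43.3% and 34.5%, and 41.9% and 17.7%. Elsewhere it had 53.8% and 35.5%, and 31.0% and 27.2%.

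Most well-covered SNPs within a member lay on the same side of the limit as the whole gene. Of 267 SNPs in members, 110 had 20 reads or more in each library, in 39 of the members. At 78 of the 110 the share was at most 55% in each library, 70.9%, against 159 of 21222 well-covered SNPs in genes, 0.749%. The mean over the 4 libraries was at most 55% at 106 of the 110 SNPs and above 66.7% at 0 of them, with a range of 14.7% to 62.6%. These SNPs carry the reads that chose the genes, so the counts describe how evenly a gene's share is spread along it.

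Of the 22 members with 2 or more such SNPs, every SNP stayed within 55% in each library in 9. In 2 members, 1:17578584-17581442 and 3:4238659, no SNP did, although the sums over each gene did. The gap between the highest and lowest SNP mean of a member had a median of 6.32 points and a range of 1.16 to 20.4 points. These means pool both crosses, so a small gap can hide SNPs that differ by cross. The smallest gap was in 5:830598. Its SNP at base 830944 had 29.3% and 23.6% in Cr A x Cr B, and 49.3% and 47.5% in Cr B x Cr A. Its SNP at base 831094 had 46.2% and 41.4%, and 34.8% and 31.8%, in the same order. Among members with 5 or more well-covered SNPs, 3:5268017 and 6:8372461 had the narrowest gaps between means and 4:12851265-12856991 and 4:3132326 the widest.

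**Figure D3:**
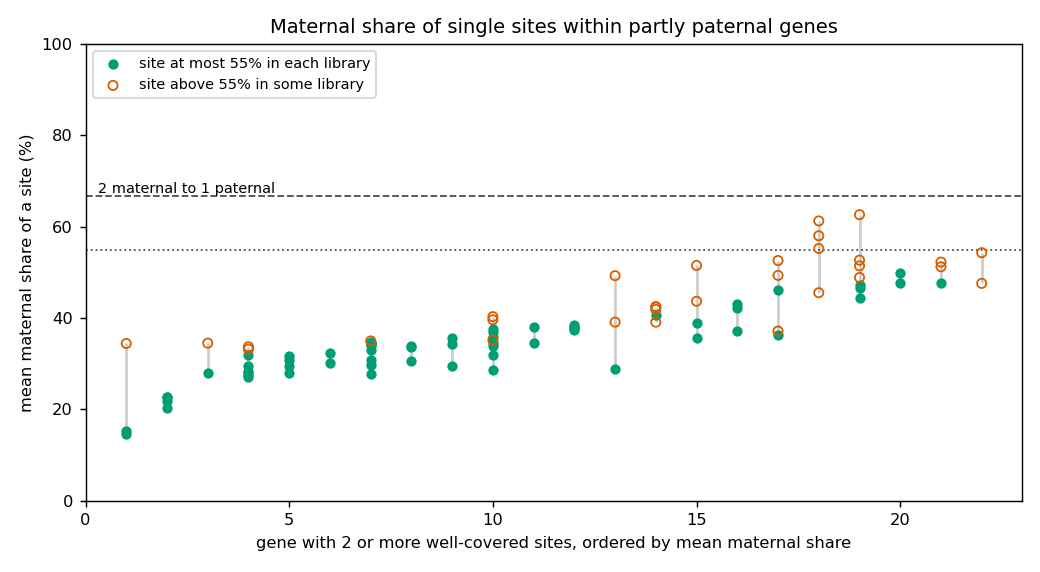
Mean maternal share over the 4 libraries (vertical axis, %) of each well-covered SNP in the 22 members with 2 or more of them, ordered along the horizontal axis by the gene's mean share. Filled points are SNPs at most 55% in each library and open points exceed it in some library. The dotted line marks 55% and the dashed line 66.7%. No SNP mean over the 4 libraries lies above 66.7%, though some SNPs do in single libraries.

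Reads outside the listed intervals could be read beside 3 members, at 5 SNPs within 1000 bases that had 20 reads or more in each library. Beside 3:4838326, SNPs 43 and 335 bases away had shares of 23.7% and 23.8%, and of 25.3% and 27.8%, in Cr A x Cr B, and of 36.5% and 38.1%, and of 48.3% and 52.7%, in Cr B x Cr A. A SNP farther off, 837 bases away, had 64.9% and 69.9% in Cr A x Cr B, against 61.5% and 62.7% in Cr B x Cr A. Both nearer SNPs of this gene lay in the range of the members and the farthest lay near the dosage.

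A SNP 66 bases from 1:17578584 had 48.8% and 38.1% in Cr A x Cr B, and 35.0% and 60.0% in Cr B x Cr A. A SNP 15 bases from 4:12851265 had 52.8% and 63.5% in Cr A x Cr B, and 28.9% and 43.1% in Cr B x Cr A. Of the 5 SNPs, 2 were at most 55% in each library, against 14 of 1442 well-covered SNPs outside genes, 0.971%. Whether these reads belong to the transcripts of the members was not tested.

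In 5 members the next listed gene on either side was another member or a strongly paternal gene. Pairs of neighbouring members are counted from both sides. The count is over 86 neighbours, of which 46 were covered. The 2 classes together make up 0.973% of single covered genes, which is another measure. How many of all covered genes lie beside such a gene was not computed, so nothing is read from the count. Genes 2:3008197-3012290 and 2:3019241 are neighbours 6950 bases apart, as are 3:4238659 and 3:4253514, 7553 bases apart. Gene 7:16676018-16677365 lies 130 bases from the strongly paternal gene 7:16674961-16675887, whose share was 14.7% and 5.43% in Cr A x Cr B, and 5.41% and 4.91% in Cr B x Cr A. Gene 7:16676018 itself had 33.3% and 11.7% in Cr A x Cr B, and 38.2% and 17.2% in Cr B x Cr A, above its neighbour in every library. Both neighbouring pairs of members held one gene among the 4 with the largest difference between the crosses. For the 46 neighbouring listed genes with 20 reads or more in each library, the median of the mean share was 65.3%.

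Whether a member was paternal to the same degree in both directions of the cross was tested next. The accession term of the same fit (log2 of the Cr A over the Cr B allele) tests that difference, and the cap of 55% in every library limits how large it can be. Past an adjusted p of 0.05 in edgeR's quasi-likelihood test, the Cr B allele was higher in 3 members, against 9.35% of all genes tested. The Cr A allele was higher in 1 member, against 5.11% of all genes tested. Neither count, as a share of the 43, was above the share of all genes. The term was negative, toward Cr B, in 33 members and positive in 10, with a median of -0.18, against -0.08 over all genes. How many of all genes had a negative term was not counted, so nothing is read from this split. At an unadjusted p under 0.05 stood 8 of the 43 members, against 2403 of all 8597 genes.

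**Figure D4:**
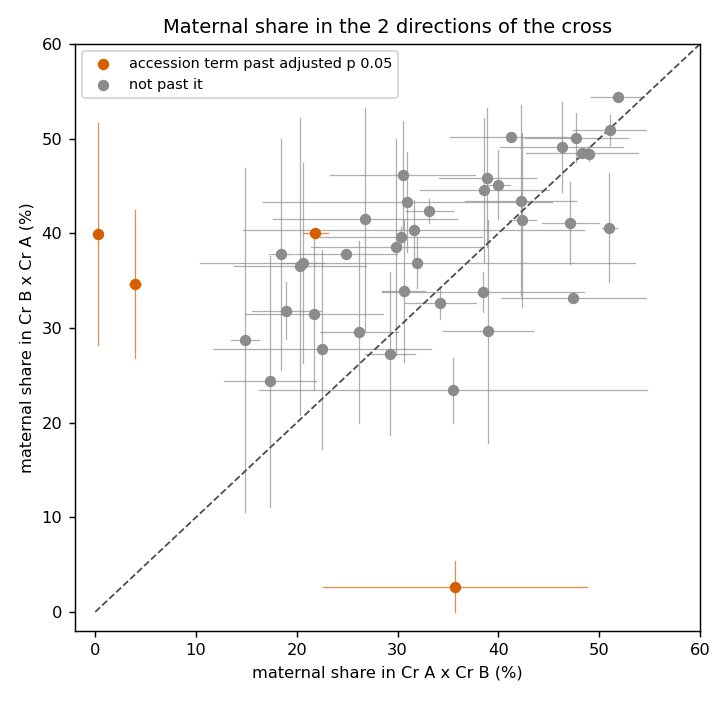
Mean maternal share of each member in Cr A x Cr B (horizontal axis, %) and Cr B x Cr A (vertical axis, %), with lines that join the 2 replicates of each cross. Orange points are the 4 members past the accession test, 3 of them above the dashed line of equal shares and 1 far below it.

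In gene 2:3019241 the maternal allele was almost silent when it came from Cr A and not when it came from Cr B. Its maternal share was 0.28% and 0.31% in Cr A x Cr B, from 712 and 2237 reads, with upper bounds of 1.01% and 0.64%. In Cr B x Cr A it was 28.2% and 51.6%, from 71 and 742 reads. The maternal Cr A allele gave 0.265 and 0.641 RPM and the maternal Cr B allele 2.27 and 35.3. The paternal allele gave 94.1 and 204 RPM in Cr A x Cr B, where it came from Cr B, and 5.78 and 33.04 RPM in Cr B x Cr A, where it came from Cr A. The accession term was -3.94 (SE 0.30, adjusted p = 0.00125, edgeR). The 13 SNPs with 20 reads or more lay at 0.0% to 2.38% in replicate 1 of Cr A x Cr B and at 0.0% to 1.06% in replicate 2. In replicate 2 of Cr B x Cr A, 12 such SNPs lay at 29.2% to 78.8%.

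Gene 6:14286090 had the same direction. Its maternal share was 4.49% and 3.37% in Cr A x Cr B, and 42.5% and 26.8% in Cr B x Cr A. Its maternal allele gave 1.06 and 2.02 RPM from Cr A, and 5.44 and 11.7 from Cr B. Its paternal allele gave 22.5 and 57.7 RPM from Cr B, in Cr A x Cr B, and 7.36 and 31.8 from Cr A, in Cr B x Cr A. The accession term was -1.83 (SE 0.23, adjusted p = 0.00517, edgeR), and the call ended when the deepest SNP alone was used (adjusted p = 0.164). It had 3 SNPs, which in Cr B x Cr A ranged from 27.7% to 74.1% in replicate 1 and from 11.7% to 62.2% in replicate 2, so the SNPs did not share one level.

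Gene 2:3008197, the neighbour of 2:3019241, differed less. Its maternal share was 23.1% and 20.6% in Cr A x Cr B, and 39.5% and 40.4% in Cr B x Cr A, and the replicates of each cross lay close together. The accession term was -0.63 (SE 0.12, adjusted p = 0.0205, edgeR). Leaving out a single library raised the adjusted p to 0.0612, 0.0807 and 0.146 in 3 of the 4 cases.

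Gene 4:1907519 went the other way, and rests on few reads. Its maternal share was 48.8% and 22.6% in Cr A x Cr B, from 41 and 53 reads. In Cr B x Cr A it was 0 of 44 reads in replicate 1, with an upper bound of 8.04%, and 5.35% of 355 reads in replicate 2. The accession term was 1.81 (SE 0.46, adjusted p = 0.0471, edgeR). The call ended when any 1 of the 4 libraries was left out, with adjusted p from 0.0532 to 0.159.

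**Figure D5:**
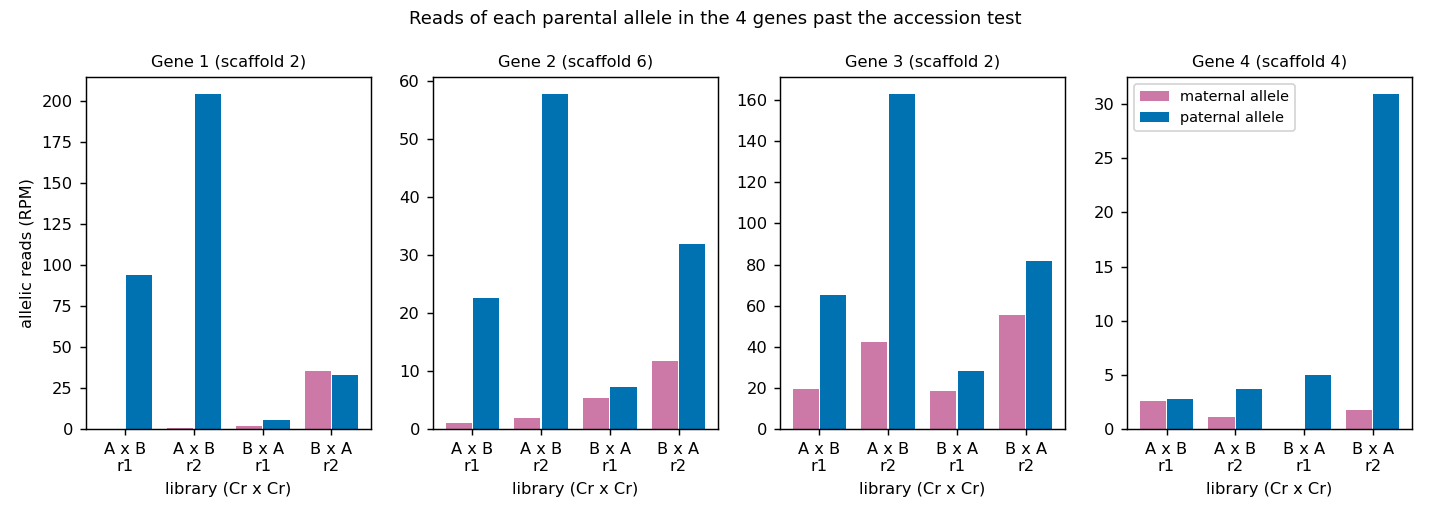
Allelic reads in RPM, reads per 1000000 allelic reads in genes (vertical axis, a scale of its own in each panel) for the maternal and paternal allele in the 4 libraries, in gene 1 (2:3019241), gene 2 (6:14286090), gene 3 (2:3008197) and gene 4 (4:1907519). The mother is Cr A in the left pair of libraries of each panel and Cr B in the right pair; the maternal bar of gene 1 is under 1 RPM in both libraries of Cr A x Cr B and 35.3 in replicate 2 of Cr B x Cr A.

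The gene with the fourth largest difference between the crosses, 3:4253514, did not pass the test. It had 19.6% and 17.2% in Cr A x Cr B, and 15 of 30 reads and 25.6% in Cr B x Cr A, with an accession term of -0.60 (SE 0.32, adjusted p = 0.285, edgeR). Counting samples alone, both libraries of Cr A x Cr B lay below both of Cr B x Cr A in 12 members, against 37.4% of covered genes, and above them in 3, against 23.1%. With 2 libraries against 2, an exact permutation test of a single gene cannot go below p = 0.333.

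No member passed the test for a difference in total expression between the crosses. Total expression, the sum of maternal and paternal reads, was compared as log2 of Cr A x Cr B over Cr B x Cr A with edgeR's quasi-likelihood test, TMM normalisation and filterByExpr. The test called 0 of the 43 members lower and 0 higher, against 0.0% of all 9040 genes tested in either direction. At an unadjusted p under 0.05 stood 0 members and 123 genes, 1.36% of those tested. DESeq2's Wald test called 0 members, and 9 genes lower and 14 higher in Cr A x Cr B. The smallest adjusted p over all genes in edgeR was 0.402. The median log2 difference was -0.16 over the members and -0.04 over all genes, from -1.79 in 4:1907519 to 2.04 in 2:3019241.

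The replicates of a cross differed widely in level. Gene 5:830598, the shortest member, had 92.9 and 192 RPM per site in Cr A x Cr B, and 21.2 and 137 in Cr B x Cr A. Its log2 difference was 0.92 (SE 0.84), and the groups overlapped. The member with the highest mean level, 6:15587077-15593891, which was picked out after its values were seen, had 69.5 and 173 RPM per site in Cr A x Cr B, and 270 and 207 in Cr B x Cr A. Genes 2:3019241 and 4:1907519, at the ends of the range, had standard errors of 0.96 and 0.93 on their log2 differences. In pooled endosperm, fewer cells of a type and less RNA per cell cannot be told apart.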

How the data were processed

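Per the labels' protocols, libraries were made from dissected endosperm with an Illumina TruSeq kit. Trimmomatic, TopHat and Bowtie 1.0 are listed in the submitters' processing notes without their roles. How alleles were called, and on which genome build, is not given in the sources used here. Per the file headers, the authors deposited for each replicate a table of both crosses that holds, for each SNP, read counts of the maternal and paternal base, the gene interval, a maternal ratio (a fraction) and a p-value per gene. The deposited base counts of each library, read as other values without a header, tied these tables to the libraries: at least 99.99% of sites held the same counts, and at most 5.82% did in any other pairing. No count was normalised by the authors. Leaf DNA reads were not analysed here.

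Counts were summed per gene, library and parent. A read over several SNPs counts at each. The parental and accession terms came from 1 edgeR 4.0.16 fit (R 4.3.3) of 8 allelic columns with terms for library, accession and parent, with 2 residual degrees of freedom, over genes with 20 or more reads in each cross. Total expression was fitted on the 4 libraries without a replicate block. Standard errors were derived from each log2 estimate and its F statistic (estimate over root F). Benjamini-Hochberg adjustment ran over all genes tested, and the scripts were tested on simulated data. DESeq2 1.42.0, other filters, other sites and leaving out each library were the alternatives.

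The members and all lists were chosen with earlier results of these data known. Lists of Arabidopsis imprinted, Polycomb, DNA methylation, MADS-box and auxin genes and of endosperm, embryo, seed coat and leaf markers could not be matched to unnamed intervals, so none has a result. Members were named by depth, by lowest and highest mean share, by difference between crosses, by passing a test, by nearness to the limits, by range over SNPs, and by neighbours and SNPs nearby. Genes 1:9558898, 1:6157623, 6:15587077 and 7:619655 were picked out after their values were seen.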

Additional observations from a re-analysis of the deposited data

Results flagged for a closer look

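The parental ratio differed between the 2 directions of the cross in 4 of the 43 members, by the accession term of the edgeR fit (log2 of the Cr A over the Cr B allele), against 9.35% of all genes tested toward Cr B and 5.11% toward Cr A. It was -3.94 in 2:3019241, -1.83 in 6:14286090 and -0.63 in 2:3008197, where the maternal share was lower in both libraries of Cr A x Cr B than in both of Cr B x Cr A. It was 1.81 in 4:1907519, where it was higher in both libraries of Cr A x Cr B. The calls of 2:3008197 and 4:1907519 were lost when single libraries were left out, and that of 6:14286090 on the deepest SNP alone. Any part of read mapping toward one accession's bases in these 4 genes was not tested.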

How the results depend on the processing

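The fits had 2 libraries per cross and 2 residual degrees of freedom, and members with under 50 reads in a library rest on coarse shares. The set itself moved most with its limits: 43 genes became 25 with an upper limit of 0.50 and 72 with 0.60, and 48 to 67 when the rule was applied to 3 libraries, the most without replicate 1 of Cr B x Cr A, when 35 of the 43 stayed in. The deepest SNP of each gene alone gave 37 genes, 29 of them members. Of the 42 members called less maternal than 2 to 1, 29 kept the call in every setting computed and 13 lost it in at least 1; the count was 32 to 37 with a library left out, 34 on the deepest SNP and 43 with DESeq2, and no parental term changed sign. Accession calls were 2 to 5 with a library left out, with 2 without either replicate of Cr A x Cr B. Calls toward Cr A, of which there was 1, numbered 0 with no minimum of reads, 0 on the deepest SNP and 0 to 1 with a library left out, where the 1 was another member than 4:1907519. Gene 2:3019241 kept its call in all of these, whereas 6:14286090 lost it on the deepest SNP (adjusted p = 0.164). With a library left out, the uncalled log2 difference in total expression ran from -0.0007 to 1.54 in 2:3008197 and from -0.14 to 1.60 in 6:14286090, with the change of sign without replicate 2 of Cr A x Cr B. A minimum of 50 reads left 3 of the 5 SNPs beside members. The cause of these shifts was not tested. The labels tie same-numbered replicates of the 2 crosses by their number alone. Their deviations correlated at 0.516 for total reads, so these libraries varied together in level, and at 0.053 for the parental log ratio. The main fits had no replicate block. A fit with one gave 43 parental calls, 5 accession calls and 0 calls in total expression.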
